A study of Mus musculus with 2 samples.

Results

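The genes described here encode the lectican matrix of the brain and its condensed form, the perineuronal net. They are 10 genes, chosen by name from the 55536 annotated genes measured: the lecticans Acan, Bcan, Ncan and Vcan, the link protein genes Hapln1, Hapln2 and Hapln4, the tenascin genes Tnr and Tnc, and the hyaluronan synthase gene Has2. Total RNA was sequenced from the left cerebral cortex of male mice of the hybrid B6CASTF1/J at 10 days of age, supplied by The Jackson Laboratory. There was 1 group of 2 libraries, called replicate 1 and replicate 2, each made from 300 ng of RNA with ERCC spike-ins (synthetic RNAs) added. By the labels these are biological replicates with different animal numbers but a shared donor identifier, so the SD measures the spread between these samples alone. The mice received no labelled treatment and carry no labelled allele beyond the hybrid background, and the design has no contrast, so nothing was tested and p-values are absent.

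Lecticans are chondroitin sulfate proteoglycans that bind the long sugar hyaluronan at one end and tenascin-R at the other. Link proteins lock the lectican to the hyaluronan, and hyaluronan synthases at the cell surface extrude the hyaluronan that carries the assembly. In the cerebral cortex this matrix fills the space between cells during early life and later condenses around certain neurons, above all parvalbumin interneurons, as perineuronal nets, whose appearance is tied to the close of critical periods. Aggrecan, the product of Acan, is the lectican that net formation depends on.

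Levels are given in TPM, an abundance corrected for transcript length and library size, which the authors deposited for each gene and transcript from alignments to the transcriptome, called the first quantification here. The authors also deposited a second quantification, which matched the reads to an index of transcripts. Replicate 1 had a depth of 31254528 expected counts and replicate 2 one of 30218308, so that 1 TPM of a transcript of 1 kb rested on 20.5 and 19.7 counts. Nuclear protein-coding genes held 48.0% and 49.0% of the TPM in the first quantification and 78.0% and 79.3% in the second. Absolute levels differed between the quantifications throughout. They still differed when rescaled to protein-coding genes, where Ncan had a mean of 381 TPM in the first and 322 TPM in the second. The 2 libraries were not copies of each other, with a chi-square of 5.06 per gene over 18515 genes. Markers of cortical glutamatergic neurons were detected, among them Slc17a7 (vesicular glutamate transporter) at 491 ± 10.8 TPM and Neurod6 (a transcription factor of these neurons) at 38.4 ± 2.64 TPM (SD, n = 2).

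Of the 10 genes, 8 were detected, meaning that both libraries had at least 1 TPM, where 59.6% of 22015 nuclear protein-coding genes were. The second quantification also detected 8, where the share over protein-coding genes was 63.5%. The members spanned a wide range, with the brain lecticans Ncan and Bcan far above the rest and Has2 and Hapln2 below the threshold. In order of mean level they were Ncan, Bcan, Tnr, Hapln1, Vcan, Tnc, Hapln4, Acan, Has2 and Hapln2. The libraries of neighbours in this order did not overlap, except those of Has2 and Hapln2, which changed places in the second quantification. The other 8 kept their places there.

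**Figure D1:**
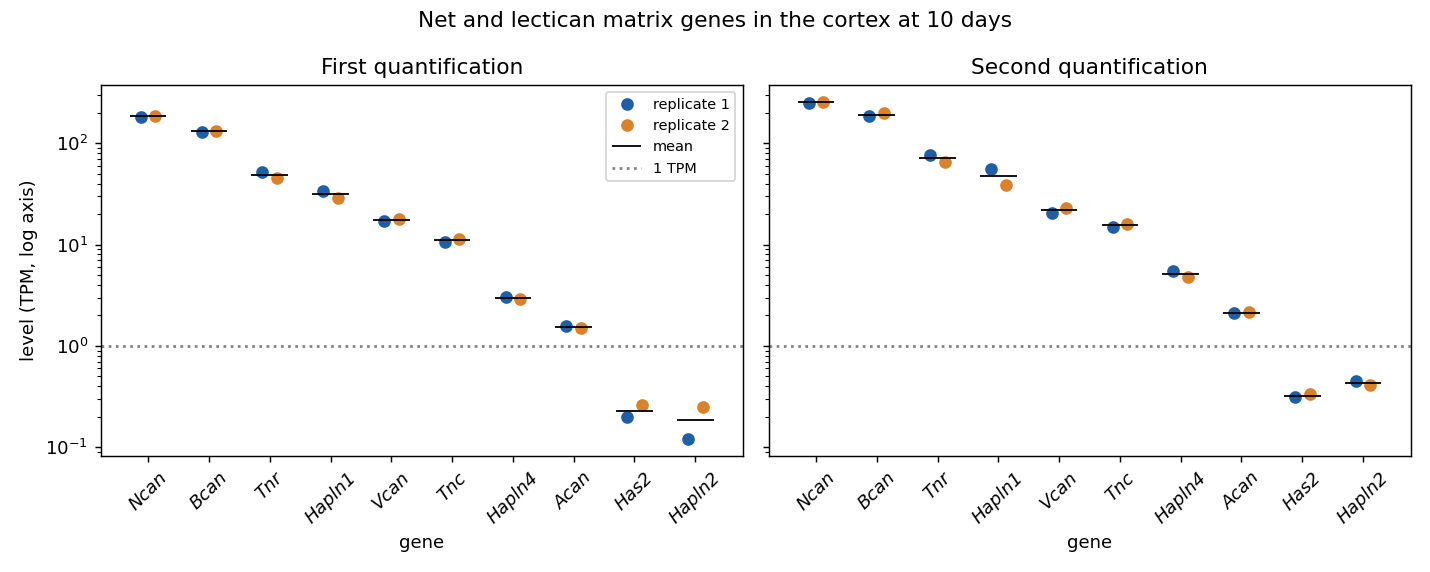
Level of each gene in TPM on a log axis, in the first quantification (left) and the second (right), with 1 point per library, a line at the mean and a dotted line at 1 TPM. Ncan and Bcan lie above 100 TPM in both panels, Acan lies just above the dotted line, and Has2 and Hapln2 lie below it.

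Among the lecticans, Ncan (ENSMUSG00000002341.8, mm10 chromosome 8, 70093085 to 70120873, minus strand) was the highest. It encodes neurocan, a lectican made by neurons and astrocytes that is most abundant in the young brain. It had 182.87 TPM in replicate 1 and 187.26 TPM in replicate 2, a mean of 185 ± 3.10 (SD, n = 2) that rested on 26632 and 26174 expected counts. It ranked 404 among the nuclear protein-coding genes, above 98.2% of them. Its single annotated transcript, Ncan-201, has a reading frame of 1268 codons, so no division between transcripts enters its value.

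Bcan (ENSMUSG00000004892.13, chromosome 3, 87987531 to 88000230, minus strand) was the next. It encodes brevican, the shortest lectican core protein, which is secreted largely by astrocytes and is found in nets and around synapses. It had 127.5 and 133.2 TPM in replicates 1 and 2, a mean of 130.4 ± 4.03, above 97.0% of protein-coding genes. Ncan stood 1.42 ± 0.0201 times as high as Bcan, a gap larger than the spread of either gene.

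Vcan (ENSMUSG00000021614.16, chromosome 13, 89655312 to 89742509, minus strand), which encodes versican, a lectican also made outside the brain and in brain by cells of the oligodendrocyte lineage, had 17.23 and 17.95 TPM, a mean of 17.6 ± 0.509. Acan (ENSMUSG00000030607.7, chromosome 7, 79053483 to 79115099, plus strand) was the lowest of the 4 lecticans, at 1.56 and 1.49 TPM, a mean of 1.53 ± 0.0495 from 212 and 213 expected counts. It ranked 12706 among the 22015 nuclear protein-coding genes, above 42.3% of them, where 13111 were detected. Aggrecan RNA was thus near the lowest of the detected genes while neurocan RNA was near the top. Ncan exceeded Acan 117-fold in replicate 1 and 126-fold in replicate 2.

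Taken as shares of the summed TPM of the 4 lecticans, Ncan made up 55.3 ± 0.328%, Bcan 39.0 ± 0.320%, Vcan 5.26 ± 0.0328% and Acan 0.456 ± 0.0252% (SD, n = 2). The shares in the second quantification were 54.1%, 40.8%, 4.66% and 0.454%. Over all transcripts, the make-up of the lectican RNA was thus close to equal in the libraries and in both quantifications, although the absolute TPM was not. In a tissue sample fewer cells of a type and less RNA per cell cannot be told apart, and this holds for every level given here. For the cells that carry nets, the marker Pvalb (the calcium buffer parvalbumin) had 2.24 ± 0.134 TPM, Syt2 (a synaptotagmin of their terminals) 10.2 ± 0.863 and Kcnc1 (a fast potassium channel) 25.2 ± 0.424. The fourth listed marker, Gad1, which GABAergic neurons share whether or not they carry nets, had 80.7 ± 5.20 TPM, or 37.5 TPM over complete coding transcripts (coding, with both ends of the frame annotated). All 4 were detected, and most of their summed level of 115 TPM in replicate 1 and 122 TPM in replicate 2 was that of Gad1.

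Among the link protein genes, Hapln1 (ENSMUSG00000021613.9, chromosome 13, 89539796 to 89611652, plus strand) led. Its product, also called cartilage link protein, stabilises lecticans on hyaluronan and is needed for full nets. It had 33.84 TPM in replicate 1 and 28.56 TPM in replicate 2, a mean of 31.2 ± 3.73. Hapln4 (ENSMUSG00000007594.10, chromosome 8, 70083457 to 70090862, plus strand), a brain link protein that partners brevican at inhibitory synapses on cell bodies, had 3.02 and 2.92 TPM, a mean of 2.97 ± 0.0707 from 145 and 150 counts. Hapln2 (ENSMUSG00000004894.10, chromosome 3, 88021750 to 88027583, minus strand), the link protein of nodes of Ranvier in myelinated tracts, had 0.12 and 0.25 TPM from 5 and 11 counts, the lowest mean of the set. Hapln1 stood 10.5 ± 1.01 times as high as Hapln4 (SD, n = 2).

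Of the summed TPM of all 4 link protein genes, which include Hapln3 (a widely expressed link protein outside the chosen set, at 4.09 ± 0.0354 TPM), Hapln1 made up 81.1 ± 1.96%, Hapln3 10.7 ± 1.11%, Hapln4 7.75 ± 0.558% and Hapln2 0.495 ± 0.286%. The link protein RNA was therefore mostly that of Hapln1. Hapln2 goes with myelin, and the listed oligodendrocyte markers were present at the same time, with Mag (a myelin adhesion protein) at 24.2 ± 5.76 TPM and Mog (a late myelin protein) at 4.45 ± 1.10 TPM.

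The tenascins cross-link the matrix. Tnr (ENSMUSG00000015829.13, chromosome 1, 159523769 to 159931729, plus strand) encodes tenascin-R, the trimeric partner that joins lecticans to each other in nets and is made by oligodendrocyte-lineage cells and some neurons. It had 52.14 and 45.46 TPM in replicates 1 and 2, a mean of 48.8 ± 4.72 from 7935 and 7169 counts. Tnc (ENSMUSG00000028364.15, chromosome 4, 63959785 to 64047015, minus strand) encodes tenascin-C, a glial tenascin of the developing brain, and had 10.68 and 11.44 TPM, a mean of 11.1 ± 0.537. Tnr was 4.43 ± 0.642 times as high as Tnc, and both tenascins lay above Acan and Hapln4.

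Has2 (ENSMUSG00000022367.7, chromosome 15, 56665627 to 56694539, minus strand), a hyaluronan synthase that is essential in the embryo, had 0.20 and 0.26 TPM from 17 and 21 counts. The antisense gene Has2os overlaps it by 4596 bases and had 0.35 and 0.39 TPM. How the counting treated strand is not stated in any source used here, so reads of the overlap may have been shared between them. Of the other synthases, Has3 had 3.09 ± 0.361 TPM and Has1 0.310 ± 0.0141 TPM, and Has3 was 13.5 ± 0.922 times as high as Has2 (SD, n = 2). Has3 was the only one of the 3 synthase genes detected, in both quantifications.

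Each lectican gene lies beside a link protein gene in the mouse genome, with 0 annotated genes between the members of each of the 4 pairs. The RNA of the neighbours was not balanced. Ncan and Hapln4, on opposite strands 2222 bases apart, stood in a ratio of 62.3 ± 2.53 (SD, n = 2) over all transcripts and of 92.6 over complete coding transcripts. Bcan and Hapln2, on the same strand 21519 bases apart, stood at 1062.5 in replicate 1 and 532.8 in replicate 2, a ratio whose lower gene had 5 and 11 counts. Vcan and Hapln1, on opposite strands 43659 bases apart, stood at 0.569 ± 0.0844, and Acan and Hapln3, whose ends are 2 bases apart on opposite strands, stood at 0.373 ± 0.0153. The lectican was the higher gene in the pairs of Ncan and Bcan, and the link protein was the higher gene in the pairs of Vcan and Acan, in both libraries. With counting whose strand setting is unknown, reads from the adjoining ends of Acan and Hapln3 could not be checked for overlap.

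A TPM summed over a gene also holds short annotated fragments and transcripts with a retained intron, and for several of these genes they carried much of the value on few reads. Transcripts that were not complete coding transcripts held 45.6% and 35.8% of the Hapln1 TPM but 5.16% and 3.49% of its counts in replicates 1 and 2. They held 35.5% and 30.6% of the Tnr TPM against 2.69% and 2.18% of its counts, and 35.4% and 29.8% of the Hapln4 TPM against 2.16% and 4.62% of its counts. A short transcript gains a large TPM from few reads, so gene totals of Hapln1, Tnr and Hapln4 in TPM were not totals of full-length messenger RNA. Ncan, Tnc and Has2 had no such transcript.

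**Figure D2:**
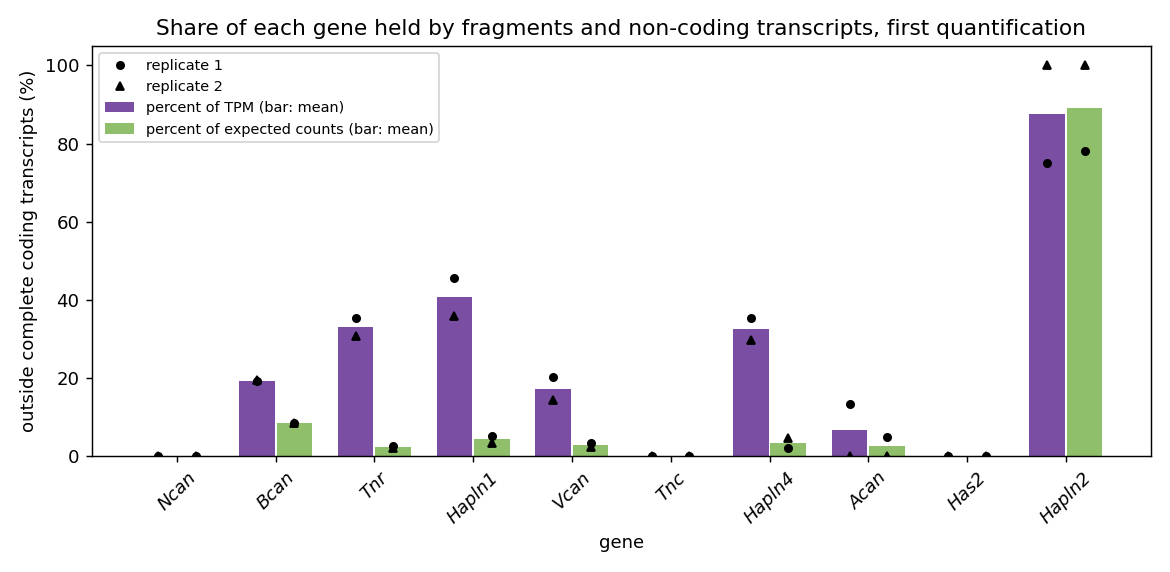
Percent of each gene held by annotated fragments and by transcripts without a complete coding frame, as a share of TPM (purple) and of expected counts (green) in the first quantification, with 1 point per library and bars at the mean. For Hapln1, Tnr and Hapln4 the TPM share lies near 30% or above in both libraries while the count share lies below 6%, and for Hapln2 most of both measures lies outside the complete transcript.

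Hapln1 shows this most plainly. Its transcript ENSMUST00000225678.1, annotated as a retained intron, has 464 bases in 2 exons at chromosome 13, 89584511 to 89601590. It had 115.54 counts in replicate 1 and 73.44 in replicate 2. The full coding transcript ENSMUST00000022108.8 (5715 bases, 356 codons) had 2122.46 and 2029.56 counts and 18.41 and 18.35 TPM. The libraries thus differed in the fragment and were nearly equal in the transcript that encodes the link protein. For Hapln4, the fragment ENSMUST00000212006.1 of 159 bases took 26.9% of the gene's TPM in replicate 1 on 1 count and had 0 in replicate 2, while the coding transcript ENSMUST00000007738.10 had 1.95 and 2.05 TPM. Its retained-intron transcript ENSMUST00000213092.1 made up 8.53% and 29.85% of the TPM on 2.13 and 6.93 counts. Of Tnr, the retained-intron transcript Tnr-205 of 660 bases held 23.9 ± 0.198% of the TPM on 144 and 119 counts.

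Counted over complete coding transcripts alone, a measure added after the data had been seen, the order of the 10 genes stayed as given, with Ncan at 185 ± 3.10 TPM, Bcan at 105 ± 2.91, Tnr at 32.6 ± 1.48, Hapln1 at 18.4 ± 0.0424 and Vcan at 14.6 ± 1.13 (SD, n = 2). The Vcan value includes Vcan-205, a transcript that ends in intron 6 but is complete by the annotation, at 1.66 ± 0.156 TPM. Tnc stood at 11.1 ± 0.537, Hapln4 at 2.00 ± 0.0707, Acan at 1.42 ± 0.0990 and Has2 at 0.230 ± 0.0424. The ratio of Tnr to Tnc was then 2.95 ± 0.278 and that of Vcan to Hapln1 0.792 ± 0.0634. That of Ncan to Hapln4 was 92.6 ± 1.72, and in the second quantification 89.8 ± 4.06, where all transcripts gave 49.3 ± 5.23. Ncan stood 1.76 ± 0.0193 times as high as Bcan, and Acan to Hapln3 stood at 0.428 ± 0.0526. Of the summed TPM of the 4 lecticans Ncan then made up 60.5 ± 0.417%, Bcan 34.3 ± 0.139%, Vcan 4.75 ± 0.257% and Acan 0.464 ± 0.0214%. The shares of Ncan and Bcan therefore depended on this measure. Hapln2 had 0.03 TPM of its complete transcript ENSMUST00000005014.8 in replicate 1, on 1.09 counts, and 0 in replicate 2. Most of its few reads were given to the retained-intron transcript ENSMUST00000160737.7, at 3.91 and 11 counts. The second quantification gave the complete transcript nothing in either library and, in replicate 1, 29.5% of the gene to the nonsense-mediated decay transcript ENSMUST00000160150.1, so the level of spliced Hapln2 RNA was not measurable at this depth.

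Versican RNA is spliced into 4 main forms by the use of 2 large exons that carry the sites for chondroitin sulfate chains. The alpha exon (exon 7 of the longest transcript, chromosome 13, 89702918 to 89705797) has 2880 bases, or 960 codons, and the beta exon (exon 8, 89688285 to 89693501) has 5217 bases, or 1739 codons. V0 holds both, V1 holds beta, V2 holds alpha and V3 holds neither. V0 and V1 are known as forms of development and of non-neural tissue, V2 as the form of the mature brain, and V3 lacks the chain-bearing region. The junctions that tell the forms apart are shown 5′ to 3′ as read from the annotated GENCODE transcripts (mm10, minus strand), with the last 20 bases of the upstream exon in lower case and the first 20 of the downstream exon in capitals.
V0, alpha to beta: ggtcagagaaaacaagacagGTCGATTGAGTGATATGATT
V1, exon 6 to beta: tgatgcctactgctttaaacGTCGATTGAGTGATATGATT
V2, alpha to exon 9: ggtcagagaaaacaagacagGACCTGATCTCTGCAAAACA
V3, exon 6 to exon 9: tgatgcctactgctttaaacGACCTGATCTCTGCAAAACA
V0 and V2 share the lower-case end of the alpha exon and V0 and V1 share the capital start of the beta exon, so the form is read from which end meets which start. Exons 6 and 9 are numbered in V0.

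V0 (transcript Vcan-203, 3354 codons) was the most abundant form. It made up 38.92% of the gene's TPM in replicate 1 and 40.27% in replicate 2, a mean of 39.6 ± 0.955%, on 1696.39 and 1755.09 counts. V2 (Vcan-202, 1615 codons, which carries the annotation's tag not_organism_supported) made up 20.4 ± 1.53%, at 19.35% and 21.52%. V0 was 1.94 ± 0.0983 times as abundant as V2 in the first quantification and 1.86 ± 0.0166 times in the second (SD, n = 2). The alpha-only form was thus the second form at this age in both libraries and both quantifications.

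V3 (Vcan-201, 655 codons) made up 9.81% and 11.25% of the gene's TPM on 77.10 and 88.36 counts. The second quantification gave it 0 in replicate 1 and 4.15% in replicate 2, so the level of V3 depended on the quantification. V1 (Vcan-206, 2394 codons) made up 1.5% and 3.83% in the first quantification and 3.48% and 4.98% in the second. The deposited interval of V1 ran from 0.0361 to 0.590 TPM in replicate 1 and from 0.156 to 1.27 TPM in replicate 2 (bounds of unstated level), so V1 was low but loosely measured.

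Of the 4 forms alone, V0 made up 54.2 ± 2.50%, V2 27.9 ± 0.124%, V3 14.4 ± 0.375% and V1 3.59 ± 2.00% in the first quantification. The second gave 59.7 ± 3.03%, 32.1 ± 1.92%, 2.66 ± 3.75% and 5.53 ± 1.19% in the same order. Forms with the alpha exon (V0 and V2) made up 82.0 ± 2.38% and forms with the beta exon (V0 and V1) 57.7 ± 0.499%, against 91.8 ± 4.95% and 65.2 ± 1.84% in the second quantification. Alpha was therefore the more widely used exon in both, and most beta-containing RNA also held alpha.

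**Figure D3:**
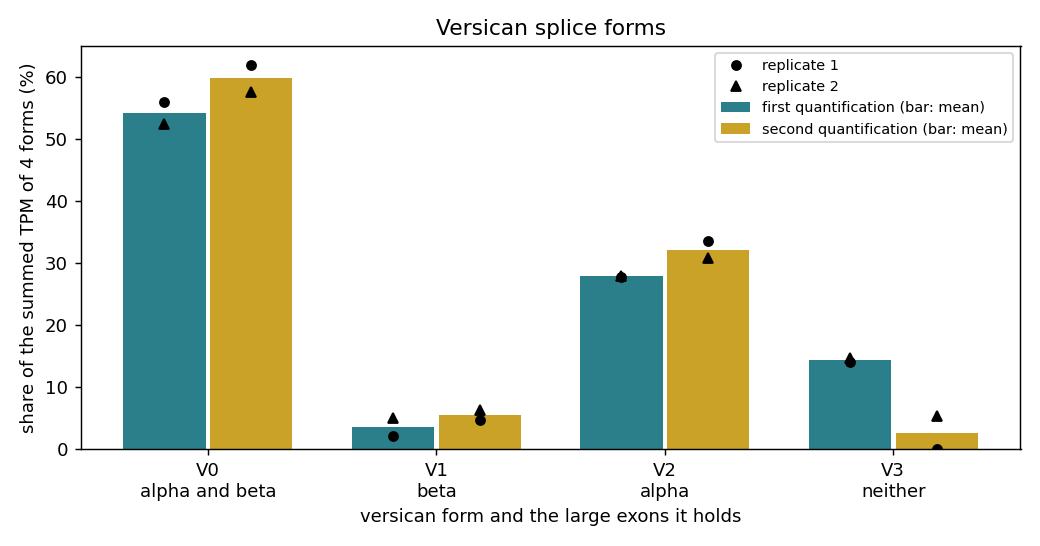
Share of the summed TPM of the 4 versican forms, in percent, for the first (teal) and second (gold) quantification, with 1 point per library and bars at the mean. V0 is the tallest and V2 the next in both, and V3 is the form on which the quantifications differ most.

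Other Vcan transcripts held the rest. Vcan-205, which ends in intron 6 and has a frame of 368 codons that runs 62 bases into it, took 10.28% and 8.66% of the TPM. The retained-intron transcript Vcan-207 took 7.24% and 5.35% (10.3 ± 2.16% in the second quantification). Because V0 is long, its share of the gene's counts was larger than of its TPM, at 71.0 ± 1.35%.

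Bcan has 1 complete coding transcript, Bcan-201 (883 codons), which held 80.83% and 80.47% of the gene's TPM in replicates 1 and 2 and 91.5 ± 0.129% of its counts. The rest lay mostly in 4 retained-intron transcripts, at 18.8 ± 0.523% of the TPM. Of these, Bcan-203 and Bcan-206 read from exon 8 on into intron 8 without splicing. A shorter brevican held to the membrane by a lipid (GPI) anchor and encoded by such a read-through is known from the rat, and whether Bcan-203 encodes that protein was not examined. The boundary is shown for both outcomes, 5′ to 3′ (mm10, chromosome 3, minus strand), with the last 20 bases of exon 8 in lower case and the bases that follow in capitals.
Bcan-201, exon 8 to exon 9: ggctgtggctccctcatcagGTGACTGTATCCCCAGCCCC
Bcan-203, exon 8 into intron 8: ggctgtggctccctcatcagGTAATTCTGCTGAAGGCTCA
Exon 8 lies at chromosome 3, 87993055 to 87993642. Read into the intron, the frame of Bcan-201 goes on for 22 codons before a stop, for 645 codons in all, within the 541 intron bases that Bcan-203 holds.

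The 2 read-through transcripts together made up 9.16% and 8.80% of the Bcan TPM, a mean of 8.98 ± 0.255% on 472 and 474 counts. The second quantification gave 9.24 ± 0.279% (SD, n = 2). It placed this RNA on Bcan-203, where the first divided it between Bcan-203 at 5.95 ± 0.396% and Bcan-206 at 3.03 ± 0.651%. The sum was therefore better fixed than either transcript. The short retained-intron transcript Bcan-202 (550 bases) had 6.23 ± 0.170% of the TPM in the first quantification and 14.7 ± 0.688% in the second, on 72.08 and 75.11 counts and on 93.5 and 97.4 counts. Total RNA can hold unspliced precursor, so these values do not tell finished read-through RNA from RNA still being spliced.

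Tnc had 2 transcripts above 10% of its TPM, which differ in 1 fibronectin-type repeat exon of the alternatively spliced region. Tnc-204 (2019 codons) held 74.90% and 68.48% of the TPM, a mean of 71.7 ± 4.54%, and Tnc-203 (2110 codons), with an extra exon 14 of 273 bases or 91 codons at chromosome 4, 63984460 to 63984732, held 25.10% and 27.78%, a mean of 26.4 ± 1.90%. The RNA without the exon was 2.72 ± 0.370 times as abundant, and 2.28 ± 0.293 times in the second quantification. The junctions that separate them are shown 5′ to 3′ (minus strand), upstream exon in lower case and downstream exon in capitals.
Tnc-203, into the extra exon: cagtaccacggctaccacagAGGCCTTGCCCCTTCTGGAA
Tnc-203, out of the extra exon: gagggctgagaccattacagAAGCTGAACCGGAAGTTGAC
Tnc-204, extra exon skipped: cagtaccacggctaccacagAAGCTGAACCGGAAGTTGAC
The transcripts also have different first exons, so their shares follow the start of the RNA as well as this exon.

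Tnr had 2 complete transcripts with reading frames of equal length, 1358 codons. Tnr-202 (12202 bases) held 59.5 ± 3.68% of the TPM and Tnr-201 (4424 bases) 7.46 ± 0.262%, a ratio of 7.99 ± 0.761 (4.70 ± 0.384 in the second quantification). The coding length of tenascin-R was thus the same whichever was used. Acan-201 (2132 codons) held 86.7% of the Acan TPM in replicate 1 and 100% in replicate 2, with the rest on a fragment. Has2 had a single transcript (552 codons).

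The next comparison was between the libraries. It used log2 of replicate 2 over replicate 1 in TPM, with 0.1 added to each, for genes with a mean of 100 expected counts or more. Of the 8 members that passed this minimum, 0 were past 0.25 in either direction, where 12.5% of 11982 protein-coding genes were. So few members give no reading against that background. The members' median was -0.01 and that of all the protein-coding genes was 0.04. In the second quantification 1 of the 8 was past 0.25, where 16.4% of protein-coding genes were, and that member was Hapln1.

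Hapln1 had a log2 ratio of -0.24 in the first quantification and -0.53 in the second, with 56.2 TPM in replicate 1 and 39.0 TPM in replicate 2 there. Over its complete coding transcript the log2 ratio was -0.0047 in the first quantification and -0.01 in the second. The ratio of all its counts, scaled to depth (CPM), was 0.972 with a 95% Clopper-Pearson interval of 0.915 to 1.03, which covers counting error only. Most of the apparent difference of Hapln1 thus lay in the reads given to the retained-intron transcript.

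Tnr had a log2 ratio of -0.20 in TPM and of -0.09 over complete coding transcripts, with a CPM ratio of 0.934 (interval 0.905 to 0.965). Vcan had 0.06 in TPM and 0.16 over complete coding transcripts, with a CPM ratio of 1.10 (interval 1.04 to 1.16). These members differed between the libraries by more than counting error in CPM, in opposite directions and by under 0.25 on the log2 scale. The libraries as a whole also differed by more than counting error, with the chi-square of 5.06 per gene over 18515 genes. The share of all genes whose interval leaves out equality was not computed, so Tnr and Vcan cannot be said to stand out. Both kept their direction when the counts were scaled by TMM, by median-of-ratios factors or by the spike-ins. Bcan had 0.06, with a CPM ratio of 1.03 whose interval of 1.001 to 1.07 only just left out equality. Its log2 ratio was 0.05 in CPM but 0.01 with median-of-ratios factors and 0.02 with TMM, so this depended on the scaling. Ncan had 0.03, with a CPM ratio of 1.02 (interval 0.999 to 1.03), and its sign turned to a log2 ratio of -0.01 with median-of-ratios factors. For Tnc the log2 ratio was 0.10, for Hapln4 -0.05 and for Acan -0.06, and the CPM interval of each included equality. Over complete coding transcripts Hapln4 and Acan stood at 0.07 and 0.13, so their sign turned with the measure.

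**Figure D4:**
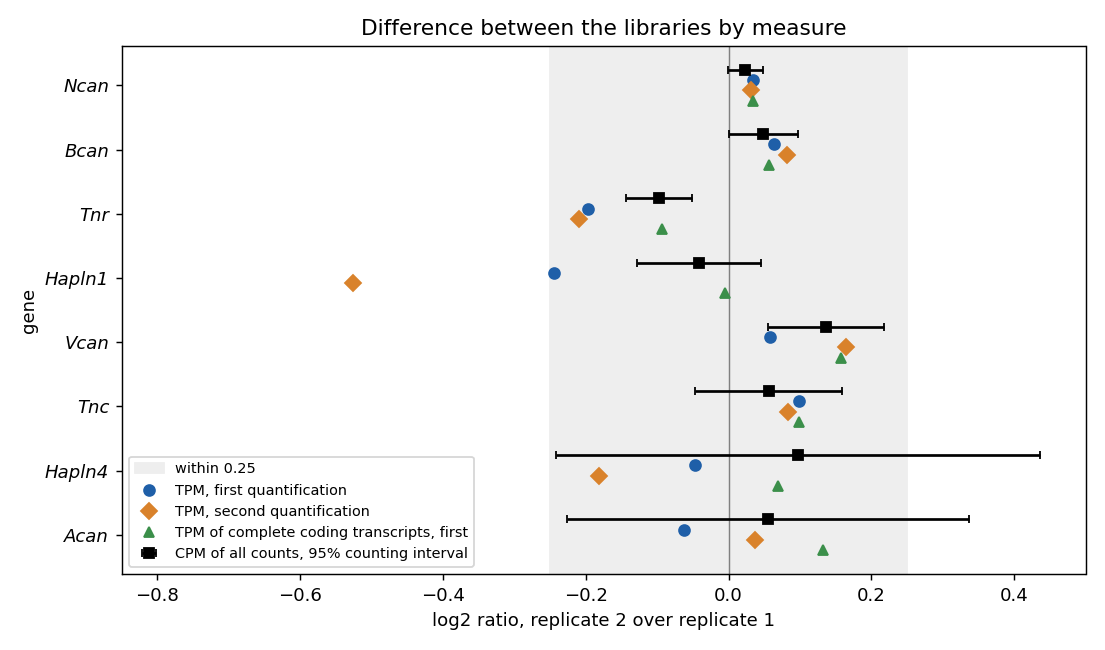
Log2 ratio of replicate 2 over replicate 1 for the 8 members with a mean of 100 counts or more, by TPM in the first (circles) and second (diamonds) quantification, by TPM of complete coding transcripts (triangles) and by CPM with its 95% counting interval (squares). The shaded band marks ratios within 0.25, and the second-quantification value of Hapln1 at -0.53 lies outside it while its other 3 values lie inside.

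Among the marker lists, that of oligodendrocytes differed between the libraries, with a median log2 ratio of -0.40 and 3 of 4 markers past 0.25, and summed levels of 167 TPM in replicate 1 and 138 TPM in replicate 2. Tnr, made in part by that lineage, was lower in replicate 2 as well, and the oligodendrocyte precursor list had a median of 0.09 with 0 of 4 past 0.25. Vcan, also described above as made by that lineage, was higher in replicate 2, opposite to the oligodendrocyte list. The fibroblast list had a median of 0.25, with 1 of 3 markers of enough counts past 0.25 and summed levels of 71.7 and 85.2 TPM, while its low marker Lum stood at -0.35. The astrocyte list and the endothelial and mural list each had 1 of 4 markers past 0.25, with medians of 0.04 and -0.02. Over protein-coding genes 12.5% were past 0.25, and marker lists this short give no reading against that share. The part of these cell types in the values of Tnr and Vcan was not tested.

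The matrix also depends on genes that make, sulfate, bind and cut its parts. Of 53 such genes in 7 lists, 44 were detected in both libraries and 49 in the second quantification, beside the shares over protein-coding genes of 59.6% and 63.5%. The lists were chosen as genes of this matrix, so their counts are descriptions. Of the 8 genes of hyaluronan breakdown and receptors 6 were detected, led by Cemip (a hyaluronan-degrading factor) at 13.9 ± 0.148 TPM and Cemip2 (a cell-surface hyaluronidase) at 8.27 ± 0.375, with Hyal3 lowest at 0.820 ± 0.240. The receptor Cd44 had 5.12 ± 0.0990 TPM. Each of these lay well below Ncan and Bcan. Of the 7 other brain proteoglycans and tenascins 5 were detected. Cspg5 (neuroglycan C) had 252 ± 7.34 TPM, above Ncan, but 185 TPM over complete coding transcripts, level with Ncan. Ptprz1 (phosphacan and its receptor form) lay between Ncan and Bcan, at 145 ± 0.898 TPM and at 139 TPM over complete coding transcripts, while the tenascin gene Tnn was lowest at 0.480 ± 0.0424 TPM.

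All 4 receptors of chondroitin sulfate proteoglycans were detected. Ptprs, the receptor tyrosine phosphatase sigma, had 318 ± 9.47 TPM, Ptprf (LAR) 90.6 ± 11.9 TPM, Rtn4r (the Nogo receptor) 35.4 ± 1.81 TPM and Rtn4rl1 22.2 ± 0.544 TPM (SD, n = 2). Over complete coding transcripts alone Ptprs had 200.96 TPM and Ptprf 17.4 TPM, so most of the Ptprf value lay outside them, while Rtn4r and Rtn4rl1 kept their values. The mean of Ptprs was higher than that of each lectican on either measure. Of the enzymes that begin and extend the chondroitin chain, 11 of 11 were detected, from B3gat3 (which completes the linkage sugar) at 67.1 ± 0.354 TPM and the polymerising factor Chpf at 38.7 ± 2.14 TPM down to B3galt6 at 5.33 ± 0.219 TPM.

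Of the 9 genes of sulfation and epimerisation 7 were detected, with Chst15 (which adds a second sulfate to 4-sulfated units) at 15.5 ± 1.27 TPM, the 2-O-sulfotransferase gene Ust at 15.2 TPM in both libraries and Chst13 lowest at 0.0450 ± 0.0212 TPM. The pattern of sulfates on the chain is known to shift from 6-sulfation to 4-sulfation as nets form. The 4-O-sulfotransferase genes Chst11, Chst12 and Chst13 summed to 23.0 and 24.9 TPM in replicates 1 and 2, and the 6-O-sulfotransferase genes Chst3 and Chst7 summed to 2.55 and 2.04 TPM. The 4-O sum was 10.6 ± 2.23 times the 6-O sum, and 11.1 ± 1.44 times in the second quantification, although RNA of these enzymes does not measure the sulfates themselves. Chst15 and Chst14 (1.10 ± 0.0424 TPM), from the same list, were in neither sum, so the ratio depends on this choice of genes.

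Of the 11 proteases that cut lecticans and their inhibitors 9 were detected. The inhibitor genes were the highest, with Timp2 at 156 ± 4.38 TPM and Timp3 at 23.1 ± 1.36 TPM, while Timp1 was the lowest of the list at 0.505 ± 0.134 TPM. Among the lectican-cutting proteases Adamts15 had 5.35 ± 0.106 TPM, Adamts9 3.78 ± 0.106, Adamts1 3.75 ± 0.849 and Adamts4 3.38 ± 0.00707, and Adamts5 had 0.84 TPM in replicate 1, below the threshold, with a mean of 0.920 ± 0.113. These Adamts genes were each lower than Bcan, Ncan and Vcan and, apart from Adamts5, higher than Acan.

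**Figure D5:**
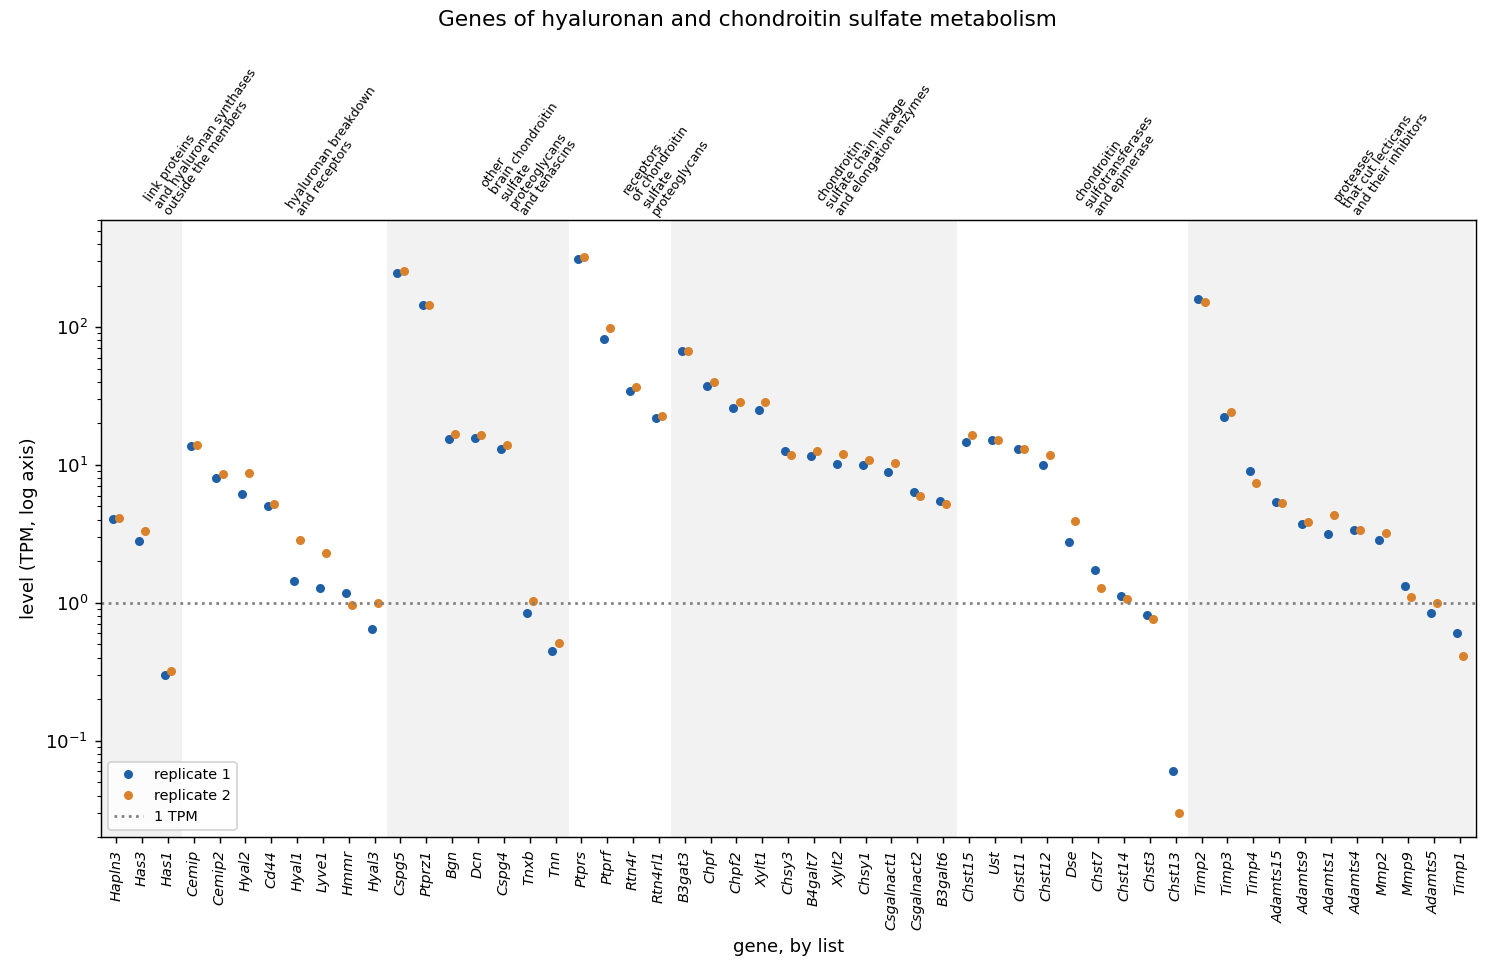
Level in TPM on a log axis of the 53 genes that make, sulfate, bind or cut the matrix, grouped by list, with 1 point per library and a dotted line at 1 TPM. Cspg5, Ptprz1, Ptprs and Timp2 stand above 100 TPM, and Chst13 is the lowest, below 0.1 TPM.

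Between the libraries, 7 of the 42 pathway genes with enough counts were past 0.25 in log2 ratio, beside the same background of 12.5%, and their median was 0.10. The hyaluronidase genes Hyal1 and Hyal2 had 0.93 and 0.51, the epimerase gene Dse 0.47, Adamts1 0.45, Ptprf 0.27 and the tenascin gene Tnxb 0.26, while Timp4 had -0.29. These TPM ratios also follow how reads were divided between transcripts. In replicates 1 and 2 the expected counts of Hyal1 were 77.93 and 143.3, of Hyal2 216 and 257 and of Dse 245 and 301. Adamts1 had 281 and 359, Ptprf 6151 and 6568, Tnxb 199.88 and 240.73 and Timp4 586 and 532. The counts of Hyal2, Dse, Adamts1, Ptprf and Timp4 thus differed by less than their TPM, and those of Hyal1 and Tnxb by about as much. No difference between the members and this list was tested.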

How the data were processed

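Total RNA of 2 libraries of 1 group was measured. Per the file headers and the deposited descriptions of the files, the authors made both quantifications on mm10 with GENCODE M21. The deposited expected counts, TPM and percent of gene TPM per transcript come from alignments to the transcriptome, with posterior means and interval bounds of unstated level. The deposited estimated counts and TPM of the second quantification come from the reads with an index and were summed by gene. Programs, their versions and how strand was treated are not stated in any source used here. The reference holds 1 parental genome and alleles were not separated. TPM was spread over all records, spike-ins and short RNAs included, and 0.359% and 0.354% of counts lay on records that name no gene.

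Genes were matched by versioned identifier. Detected means at least 1 TPM in both libraries. Shares, ratios, log2 ratios (0.1 TPM added, mean of 100 counts or more) and Clopper-Pearson intervals were computed per library with Python 3.11.15, pandas 2.3.3 and scipy 1.17.1. Only the ratio of depth-scaled counts and its interval were tested on simulated counts. Intervals cover counting error only, since without molecular identifiers reads cannot be taken as independent molecules. TMM factors came from edgeR 4.0.16 on rounded expected counts. Sequences were read from the GENCODE M21 transcripts. The members, lists and settings were chosen with earlier results of these data known. Named were all members, transcripts with 10% or more of a gene's TPM in either quantification, and of each pathway list the highest 2, the lowest and others among those detected. The pathway genes Tnxb, Chst3 and Adamts5, the markers and the transcripts Bcan-203, Bcan-206, Vcan-205 and Vcan-206 were named outside this rule with their values known.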

Additional observations from a re-analysis of the deposited data

How the results depend on the processing

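No paired analysis was possible because there was 1 group. The members past 0.25 in log2 ratio numbered 0, but 1 in the second quantification (Hapln1) and 2 without the filter on low counts (Hapln2 and Has2), where 29.6% of all protein-coding genes were past it. That count was 0 with a pseudocount of 1, with TMM, median-of-ratios or spike-in scaling, and over complete coding transcripts. The share of Bcan-201 was 80.7% of TPM, 76.1% in the second quantification and 91.5% of counts. The share of Vcan-203 was 39.6% of TPM, 45.5% in the second quantification and 71.0% of counts. Leaving out 1 library gave 80.5% to 80.8% for Bcan-201 and 38.9% to 40.3% for Vcan-203. Members detected numbered 8, also at 0.5 TPM and in the second quantification, and 6 at 5 TPM. Pathway genes detected numbered 44, but 49 at 0.5 TPM or in the second quantification and 32 at 5 TPM. The levels of all 10 members moved by more than their SD in the second quantification and when rescaled to protein-coding genes. The ratio of Bcan to Hapln2 over complete coding transcripts could not be given, since Hapln2 then stood at 0 in replicate 2. Hapln2 and Has2, at 5 to 21 counts, are limited by depth, and with 2 libraries each SD is itself loosely known.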
